A study of Mus musculus with 6 samples.

Results

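A set of 67 genes was all but absent from mouse C2C12 cells in which Adamtsl2 had been knocked down, although each was expressed in control cells. They were chosen from the deposited normalised counts by 2 limits and a list of names. A gene had to average at least 200 over the control libraries and lie under 10 in each knockdown library, and its symbol could not start with any of 16 prefixes that cover most contractile proteins and some developmental families (Myh, Myl, Myo, Tnn, Act, Mef2, Casq, Lmod, Klhl, Trim, Galnt, Col, Hox, Tbx, Wnt and Fzd). Among 16854 genes in all, 67 met all of this, and Galnt6 and Myoz1 met the limits but not the names. The 69 genes that met the limits made up 0.661% of the 10443 genes with a control mean of at least 200. With the groups exchanged, 77 genes averaged at least 200 in knockdown cells and lay under 10 in each control library, which is 0.728% of 10578. The levels of the 67 genes in both groups are therefore a description of how they were chosen, and no test is given for them.

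C2C12 is a line of mouse myoblasts that stops dividing and fuses into multinucleated myotubes when serum is withdrawn. The knockdown group was 3 libraries from C2C12 cells that stably expressed a short hairpin RNA against Adamtsl2, a secreted glycoprotein that binds matrix microfibrils. The control group was 3 libraries from C2C12 cells with a scrambled hairpin, and both groups were harvested on day 3 in 2% horse serum. The series asks how Adamtsl2 bears on Wnt signalling in muscle differentiation. The labels name 1 hairpin against Adamtsl2 and no rescue, so loss of Adamtsl2, other targets of that hairpin and differences between stably selected lines cannot be told apart. Nothing in the labels says whether the 3 libraries of a group came from separate cultures, so p-values measure only the spread between these libraries, which may be technical.

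Differentiating myoblasts switch on a wide programme beyond the myofibril: voltage-gated channels and pumps for the muscle action potential, proteins of the sarcoplasmic reticulum that store and release calcium, enzymes of glycogen and creatine metabolism, receptors, and muscle microRNAs. Much of it is driven by the MyoD family of basic helix-loop-helix factors, which bind the E-box, a short DNA word written CANNTG, together with factors of the MEF2 family, which bind an AT-rich site. In whole-culture RNA, fewer cells of a type and less RNA per cell cannot be told apart.

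The libraries held 37346439 to 50329438 recovered reads, so that 1 read was worth 0.829 to 1.26 normalised units. Adamtsl2 (chr2:27079379-27108981, plus strand, GRCm38) had 23.2, 21.7 and 7.83 normalised counts in knockdown libraries 1, 2 and 3, against 1325, 1266 and 1307 in control libraries 1, 2 and 3, a log2 change of -6.26 (limma adjusted p = 0.00011). The third knockdown library stood apart: on log values over all genes tested it correlated at 0.917 and 0.920 with the other two, which correlated with each other at 0.996. The 5 markers of the myogenic line summed to 6307 to 7151 in knockdown libraries and to 279728 to 293601 in control libraries. Of the fibroblast markers 4 of 5 were in the table, and they did not move together: Col1a1 had 13552, 12103 and 6475 in knockdown libraries, against 310993, 342955 and 298390.2 in control libraries, while Dcn had 68597, 69622 and 145067 in knockdown libraries, against 4717, 4720.1 and 4854 in control libraries. Pdgfra ran from 1157 to 2747 in knockdown libraries and from 1336 to 1646 in control libraries, and Lum from 305 to 341 in knockdown libraries and from 390.5 to 405 in control libraries. The 4 summed to 84766 to 153039 in knockdown libraries and to 304971 to 349725 in control libraries. For endothelial markers, 2 of 4 in the table, the sums were 18.2 to 90.5 in knockdown libraries and 6.32 to 6.65 in control libraries, and for macrophage markers, 2 of 4 in the table, 63.8 to 124 in knockdown libraries and 70.8 to 108 in control libraries. The defining markers Cdh5, Kdr, Ptprc and Adgre1 and all 4 adipocyte markers were not in the table used here. The part of any of these in the results was not tested.

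The name of the set needs a qualification. The prefixes did not remove every protein of the myofibril: Mybpc2, the fast-muscle form of myosin-binding protein C, and Csrp3, the muscle LIM protein of the Z-disc, are among the 67. The set also holds genes with no known link to muscle contraction, such as F2, which encodes prothrombin, and Zap70, a kinase of T-cell receptor signalling. By annotation 58 of the 67 (86.6%) were protein coding, against 97.0% of the other genes with a control mean of at least 200. Of the rest, 3 were long intergenic noncoding RNAs and 2 were antisense RNAs. There was 1 each of a sense-intronic RNA, a microRNA, a bidirectional-promoter noncoding RNA and an unprocessed pseudogene. The 67 were shorter than those other genes, with a median exonic length of 2992 bp against 4684 bp and a median of 6 exons against 10. They lay on 17 chromosomes, with the most, 9 (13.4%), on chromosome 11, against 8.38% of those other genes.

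Of the 67 genes, 50 had a promoter in the RefSeq table (GRCm38.p6, 250 bases before to 50 after the annotated start). The promoters of 6 of them are shown as examples. Ppp1r3a, Fbxo40 and Hspb3 hold a match to the MEF2 site, and Csrp3 has the most E-boxes of the 6. Ptgds has 2 copies of the E-box word CAGCTG, and Cnr1 is rich in CG. All 6 hold an E-box, while 12 of the 50 promoters hold no E-box, MEF2 match or TATAAA word. The 6 were picked after the matches were known and do not span the range of the set. Each is written 5′ to 3′ on the gene's own strand, with E-boxes (CANNTG) and MEF2 matches in capitals.
Ppp1r3a (chr6:14755225-14755524, minus strand): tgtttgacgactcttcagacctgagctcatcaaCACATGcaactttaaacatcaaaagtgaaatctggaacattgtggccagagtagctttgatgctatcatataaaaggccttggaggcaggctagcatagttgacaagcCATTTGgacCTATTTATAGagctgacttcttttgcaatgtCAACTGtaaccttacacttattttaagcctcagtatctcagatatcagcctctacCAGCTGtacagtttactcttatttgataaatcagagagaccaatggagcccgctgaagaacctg
Fbxo40 (chr16:36990418-36990717, minus strand): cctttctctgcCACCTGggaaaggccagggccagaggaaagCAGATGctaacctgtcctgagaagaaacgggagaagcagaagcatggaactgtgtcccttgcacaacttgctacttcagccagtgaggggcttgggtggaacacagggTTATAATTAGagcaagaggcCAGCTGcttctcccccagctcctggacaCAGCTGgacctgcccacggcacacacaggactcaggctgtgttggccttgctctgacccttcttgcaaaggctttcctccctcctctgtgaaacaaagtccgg
Hspb3 (chr13:113663627-113663926, minus strand): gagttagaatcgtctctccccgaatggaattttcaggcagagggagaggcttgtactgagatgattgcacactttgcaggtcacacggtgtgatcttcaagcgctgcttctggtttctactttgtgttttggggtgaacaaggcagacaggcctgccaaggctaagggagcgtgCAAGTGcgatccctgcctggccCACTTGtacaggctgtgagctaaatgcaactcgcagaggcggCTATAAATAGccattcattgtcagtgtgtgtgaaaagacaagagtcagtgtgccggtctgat
Csrp3 (chr7:48848002-48848301, minus strand): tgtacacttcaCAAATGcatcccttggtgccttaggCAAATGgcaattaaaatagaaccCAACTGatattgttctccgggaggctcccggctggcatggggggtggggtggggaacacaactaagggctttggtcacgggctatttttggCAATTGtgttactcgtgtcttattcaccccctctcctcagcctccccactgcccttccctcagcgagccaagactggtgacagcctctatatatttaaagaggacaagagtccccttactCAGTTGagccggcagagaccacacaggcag
Ptgds (chr2:25469700-25469999, minus strand): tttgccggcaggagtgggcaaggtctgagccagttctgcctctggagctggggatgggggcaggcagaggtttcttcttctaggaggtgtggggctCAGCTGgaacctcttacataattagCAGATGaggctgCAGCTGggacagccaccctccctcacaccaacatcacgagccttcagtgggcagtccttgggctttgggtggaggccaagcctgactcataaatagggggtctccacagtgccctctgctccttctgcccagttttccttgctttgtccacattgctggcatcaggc
Cnr1 (chr4:33924394-33924693, plus strand): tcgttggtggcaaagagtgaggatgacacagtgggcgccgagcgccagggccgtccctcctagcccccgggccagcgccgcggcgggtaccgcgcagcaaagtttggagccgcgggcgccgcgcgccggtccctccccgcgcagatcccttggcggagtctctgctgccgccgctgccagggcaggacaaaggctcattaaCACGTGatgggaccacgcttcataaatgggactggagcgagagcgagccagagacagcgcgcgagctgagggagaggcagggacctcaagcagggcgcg

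In Ppp1r3a the MEF2 match begins 100 bases before the start, with E-boxes at 217, 109, 69 and 14 bases before it, and the last of these is CAGCTG. In Fbxo40 the MEF2 match begins 101 bases before the start, followed by CAGCTG words at 81 and 53 bases before it. In Hspb3 the MEF2 match begins 12 bases before the start. The other MEF2 matches in the set were in Hephl1 and 2310002L09Rik, 76 and 95 bases before the start.

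An E-box stood in 38 of 50 promoters (76.0%, exact 95% interval 61.8 to 86.9%), against 63.5% of the 10891 promoters of other tested genes. The word CAGCTG, which reads the same on both strands and is bound by MyoD and myogenin, stood in 14 of 50 (28.0%, 16.2 to 42.5%), against 15.4%. A MEF2 match stood in 5 of 50 (10%, 3.33 to 21.8%), against 1.88%. The word TATAAA stood in 8 of 50 (16%, 7.17 to 29.1%), against 7.42%, while CAGGTG (20.0% against 17.3%) and the M-CAT word CATTCC (14.0% against 12.3%) were nearer to the other promoters. No CArG box was found in the 50 promoters (exact upper limit 7.11%), against 1.39% of the others, and CCAAT stood in 32.0% against 38.9%. The word CGCG, common in CpG islands, stood in 15 of 50 promoters (30.0%, 17.9 to 44.6%), against 68.6%. The median number of CG dinucleotides was 6 in the set and 20 in the other promoters, and 24 of 50 (48.0%) had at most 5, against 11.7%. Words were searched on both strands, and CAGCTG and CAGGTG words are also CANNTG words. A TATAAA word lay inside the MEF2 match of Hephl1, Ppp1r3a, 2310002L09Rik and Hspb3, so the TATAAA and MEF2 shares partly count the same letters. A match is a description of the letters in this window. Nearer the start (100 bases before to 50 after) CAGCTG stood in 12% of the set and in 8.75% of the others, and a MEF2 match in 8% and 0.735%.

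**Figure D1:**
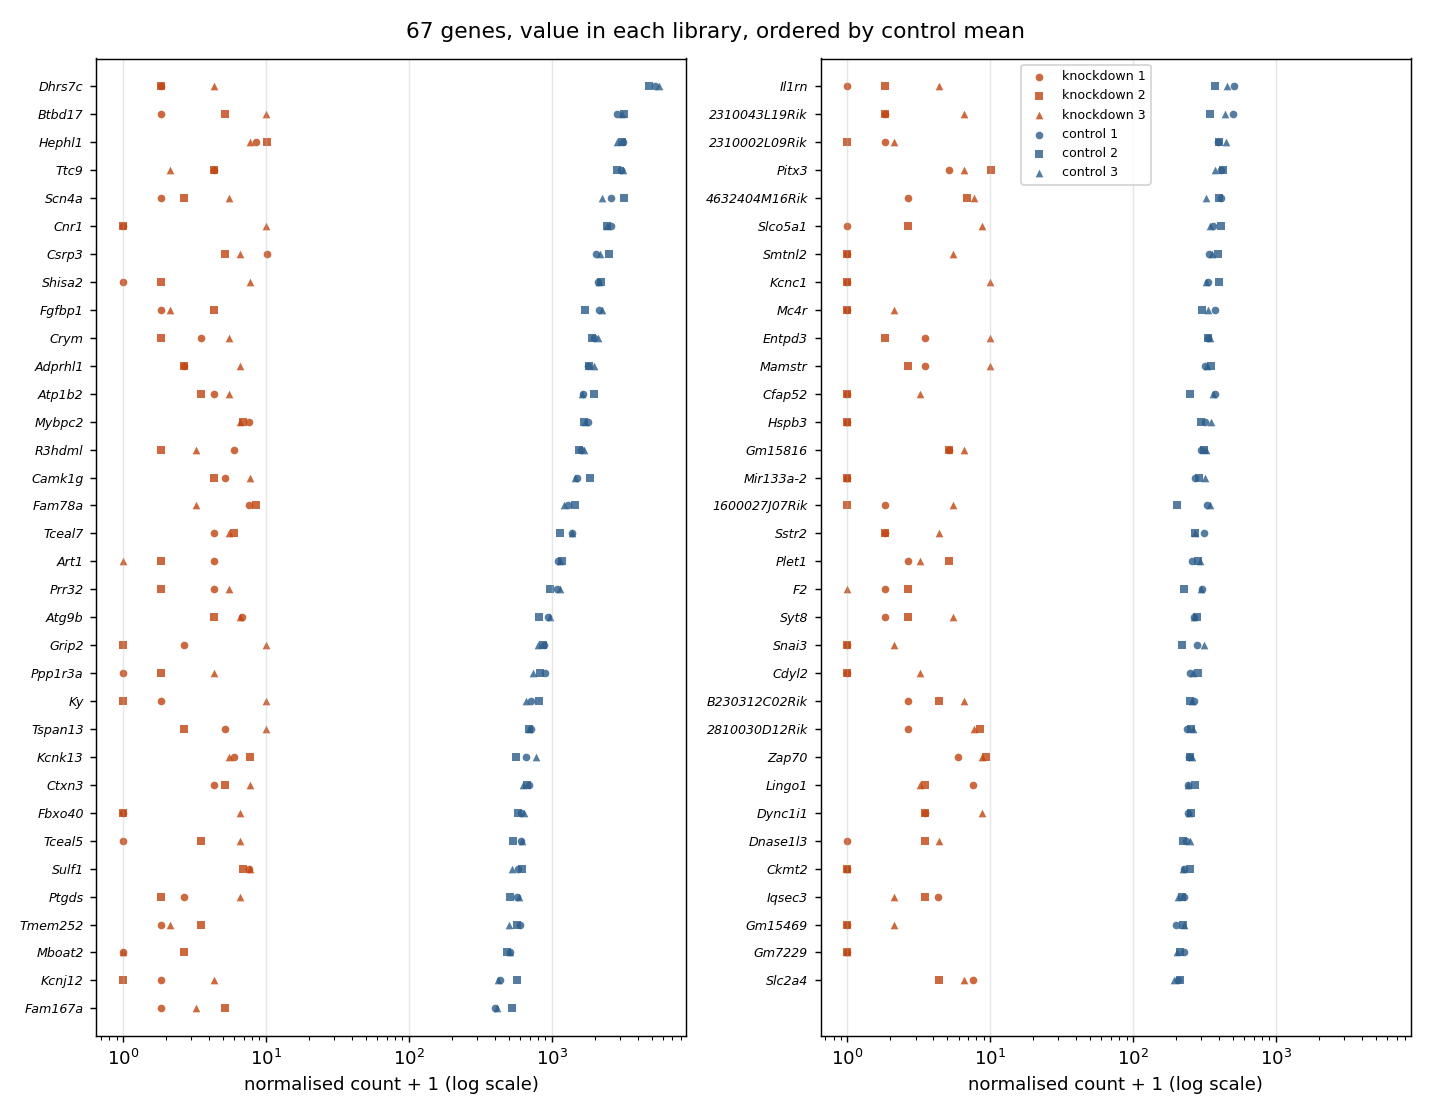
Normalised count + 1 of each of the 67 genes (log axis) in the 3 knockdown libraries (orange) and the 3 control libraries (blue), ordered by control mean in 2 columns of genes. All knockdown values lie under 10 and all control means at or above 200, as the choice of genes fixed, and triangles of knockdown library 3 are often the rightmost of the orange points.

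Summed over the 67 genes, the normalised counts came to 143, 157 and 294 in knockdown libraries 1, 2 and 3, against 60996, 61009 and 61067 in control libraries 1, 2 and 3. The control sums lay within a narrow band, while knockdown library 3 carried about as much as the other two together. As a share of all reads this was 0.00035 to 0.000659% in knockdown libraries and 0.128 to 0.129% in control libraries. Control means ran from 203 to 5255 with a median of 448, and the ratio of control to knockdown means, or its bound, from 35.6 to 3141 with a median of 241. In the authors' deposited table all 67 genes had a p-value, and their log2 fold change, knockdown over control, ran from -11.75 to -5.17 with a median of -8.25. In the limma model, which took in all 16245 genes tested, the fitted log2 changes of the 67 genes ran from -11.07 to -4.99 with a median of -7.74. All 67 entered that model only because of their control libraries, since none had a knockdown value of 10. In it 45.2% of all genes tested passed an adjusted p of 0.05, a share from which nothing is read about genes chosen on the same contrast.

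Reads were not always absent. Over the 3 knockdown libraries, 4 genes had 0 reads (Hspb3, Mir133a-2, Ckmt2 and Gm7229), 8 had 1 to 3 reads and 55 had more than 3. In the first and second knockdown libraries alone, 13 genes had 0 reads, and 9 of those had reads in the third. Of the 63 genes with any read in knockdown cells, 41 (65.1%) had their highest knockdown value in library 3. Among 368 other genes that lay under 10 in all knockdown libraries without being 0 throughout, the share was 55.7%. Intervals, and the bounds drawn from 3 reads per library, cover counting error only.

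Genes close to the limits show how sharp these were. Just inside the control limit were Slc2a4 (mean 203), Gm7229 (214) and Gm15469 (216), and genes close outside it included A730013G03Rik (189) and Dact1 (188). Just inside the knockdown limit were Pitx3 and Hephl1, with a highest value of 9.20 each, and Csrp3 with 9.12. Just outside it were Plagl1, Slit1 and Filip1, each with 10.1 in knockdown library 3 and less in the others. Without knockdown library 3 the same limits took in 146 genes, the 67 and 79 more. The most abundant of the 79 in control cells was Cdh11, a cadherin of mesenchymal cells. It had 1.66 and 0.836 in knockdown libraries 1 and 2 and 21.2 in library 3, against a control mean of 11290.0. Muscle genes such as Cav3, Tcap and Myf6 were also among the 79.

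Calcium handling and kinase signalling held 5 of the 67. Dhrs7c, a retinol dehydrogenase of the sarcoplasmic reticulum and the most abundant of the 67, had 0.829, 0.837 and 3.35 in knockdown libraries 1, 2 and 3, against 5284, 4801 and 5679.6 in control libraries 1, 2 and 3. Camk1g, a calcium- and calmodulin-dependent kinase, had 4.15, 3.35 and 6.71 in knockdown libraries, against 1504, 1864 and 1456 in control libraries. The groups were far apart in both genes, as the choice of genes fixed, and the highest knockdown value of both was that of library 3. Syt8, a synaptotagmin, had 0.829, 1.67 and 4.47 in knockdown libraries, against 268, 279 and 267 in control libraries. Zap70 had 4.97, 8.36 and 7.83 in knockdown libraries, against 246, 249 and 257 in control libraries, and its 35.6-fold ratio of means was the smallest of the 67. The fifth gene of the group, Iqsec3, an exchange factor for Arf GTPases, averaged 218 in control cells.

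The contractile apparatus and protein turnover accounted for 8 genes. Csrp3 had 9.12, 4.18 and 5.59 in knockdown libraries, against 2029.9, 2507 and 2192 in control libraries. Adprhl1, which encodes an ADP-ribosylhydrolase-like protein of heart and skeletal muscle, had 1.66, 1.67 and 5.59 in knockdown libraries, against 1792, 1825 and 1970.5 in control libraries. Mybpc2 had 6.63, 5.86 and 5.59 in knockdown libraries, against 1796, 1689 and 1718 in control libraries. In Csrp3 and Mybpc2 it was knockdown library 1, and not library 3, that was highest. Ky, a muscle protein whose loss causes kyphoscoliosis in mice, had 0.829, 0 and 8.94 in knockdown libraries, against 720.2, 811 and 660.3 in control libraries, so nearly all of its knockdown reads came from library 3. Fbxo40, a muscle F-box protein that directs ubiquitination of insulin receptor substrate, had reads in knockdown library 3 alone, as did Smtnl2, a smoothelin-like protein. Hspb3, a small heat shock protein of muscle, had 0 reads in all knockdown libraries, against 318, 296 and 352 in control libraries, a level at least 116-fold lower. Dync1i1, a dynein intermediate chain, completed the group with a control mean of 247.

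Ion channels and pumps were 5 genes. Scn4a, the sodium channel that carries the action potential of skeletal muscle, had 0.829, 1.67 and 4.47 in knockdown libraries, against 2609.6, 3228 and 2267 in control libraries. Atp1b2, a beta subunit of the sodium pump, had 3.32, 2.51 and 4.47 in knockdown libraries, against 1645, 1975 and 1635 in control libraries. Both were highest in control library 2 among controls. Kcnk13, a potassium channel of the tandem-pore family, had 4.97, 6.69 and 4.47 in knockdown libraries, against 664, 562 and 773 in control libraries, and it was lowest in control library 2. Kcnj12, an inward-rectifier potassium channel, had 0.829, 0 and 3.35 in knockdown libraries, against 435, 573 and 417 in control libraries. Kcnc1, a voltage-gated potassium channel best known from fast-spiking neurons, had reads in knockdown library 3 alone, 8.94 normalised counts, against a control mean of 353.

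Enzymes and transporters of metabolism were 8 genes. Crym, a thyroid-hormone-binding protein of the cytosol, had 2.49, 0.837 and 4.47 in knockdown libraries, against 1987, 1929 and 2096 in control libraries. Art1, an arginine-specific ADP-ribosyltransferase of the muscle surface, had 3.32, 0.837 and 0 in knockdown libraries, against 1111, 1175 and 1141 in control libraries, and was 1 of 7 genes with no read in knockdown library 3. Ppp1r3a, which anchors protein phosphatase 1 to glycogen in muscle, had 0, 0.837 and 3.35 in knockdown libraries, against 896, 831 and 744 in control libraries. Atg9b, an autophagy protein, had 5.80, 3.35 and 5.59 in knockdown libraries, against 942, 816 and 966 in control libraries. In none of the 4 did a knockdown library come near a control library, as the choice of genes fixed. Ckmt2, the creatine kinase of muscle mitochondria, had 0 reads in knockdown libraries, against 227, 250.1 and 222 in control libraries, at least 83.7-fold lower. Slc2a4, the insulin-regulated glucose transporter GLUT4, had 6.63, 3.35 and 5.59 in knockdown libraries, against 206, 211 and 193 in control libraries. Ptgds, which makes prostaglandin D, and Mboat2, a lysophospholipid acyltransferase, averaged 558 and 500.0 in control cells. Mboat2 had 2 reads in all knockdown libraries, and its ratio of 897 had a counting interval of 248 to 7411.

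Receptors and other membrane proteins formed the largest group, with 12 genes. Cnr1, the cannabinoid receptor best known from brain, had 0, 0 and 8.94 in knockdown libraries, against 2616, 2434 and 2444 in control libraries. Shisa2, an endoplasmic reticulum protein that holds back FGF and Wnt receptors in Xenopus, had 0, 0.837 and 6.71 in knockdown libraries, against 2117, 2215 and 2145 in control libraries. In both genes almost all knockdown reads came from library 3. Grip2, a scaffold of glutamate receptors, had 1.66, 0 and 8.94 in knockdown libraries, against 880.4, 869 and 802 in control libraries. Tspan13, a tetraspanin, had 4.15, 1.67 and 8.94 in knockdown libraries, against 717, 697 and 691 in control libraries. The other 8 of this group had control means between 250.02 and 661. They were Ctxn3, Tmem252, Slco5a1, Entpd3, Plet1, Lingo1 and the receptors Mc4r (melanocortin) and Sstr2 (somatostatin). Mc4r had 1 read in all knockdown libraries, and its ratio of 904 had a counting interval of 162 to 35731.

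Secreted and matrix proteins were 8 genes. Btbd17 had 0.829, 4.18 and 8.94 in knockdown libraries, against 2878, 3225 and 3107 in control libraries. Hephl1, a copper ferroxidase of the hephaestin family, had 7.46, 9.20 and 6.71 in knockdown libraries, against 3141, 3092 and 2861 in control libraries. Fgfbp1, which releases fibroblast growth factors from the matrix, had 0.829, 3.35 and 1.12 in knockdown libraries, against 2155, 1718 and 2249 in control libraries. Unlike most of the set, Hephl1 and Fgfbp1 were not highest in knockdown library 3. R3hdml, a secreted protein of the CAP family, had 4.97, 0.837 and 2.24 in knockdown libraries, against 1604, 1561 and 1679 in control libraries. The heparan sulfate endosulfatase Sulf1, the interleukin-1 receptor antagonist Il1rn, F2 and the nuclease Dnase1l3 had control means between 234 and 578.

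Transcription and chromatin were represented by 6 genes. Tceal7 and Tceal5, X-linked members of the TCEAL family, had 3.32, 5.02 and 4.47 and 0, 2.51 and 5.59 in knockdown libraries, against 1381, 1144 and 1387 and 606, 534 and 616 in control libraries. Pitx3, a homeodomain factor expressed in muscle and midbrain, had 4.15, 9.20 and 5.59 in knockdown libraries, against 411, 426 and 375 in control libraries. Mamstr, a coactivator of MEF2 factors in muscle, had 2.49, 1.67 and 8.94 in knockdown libraries, against 317, 351 and 329 in control libraries. Of the knockdown values of these 4 genes, the highest were those of Pitx3 in library 2 and Mamstr in library 3. The zinc finger repressor Snai3 and the chromodomain protein Cdyl2 had 1 and 2 reads in all knockdown libraries, and their control means were 271 and 265. Of the 5 genes not placed in a group, Ttc9, a tetratricopeptide protein, was the most abundant, with 3.32, 3.35 and 1.12 in knockdown libraries, against 3036, 2858 and 3169 in control libraries. Fam78a had 6.63, 7.53 and 2.24 in knockdown libraries, against 1294, 1466 and 1228 in control libraries. The highest values of both were in the first or second knockdown library. Prr32 had 3.32, 0.837 and 4.47 in knockdown libraries, against 1095, 980.1 and 1134 in control libraries. Fam167a had 0.829, 4.18 and 2.24 in knockdown libraries, against 399.9, 529 and 415 in control libraries, and Cfap52, a protein of motile cilia, averaged 329 in control cells.

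Noncoding and unnamed loci made up 10 of the 67. Mir133a-2, which encodes a muscle microRNA (chr2:180398379-180398482, plus strand, GRCm38), had 0 reads in knockdown libraries, against 270.2, 289 and 320.2 in control libraries, at least 105-fold lower. These are poly(A)-selected libraries, so the values count long transcripts over the locus and not the mature microRNA. Mir1a-1, the muscle microRNA gene 9255 bp away, also had 0 reads in knockdown libraries, against 28.3, 25.3 and 19 in control libraries (limma adjusted p = 0.00025), and the noncoding RNA B230312C02Rik, which runs on the opposite strand 12494 bp from Mir133a-2, was itself in the set with 1.66, 3.35 and 5.59 in knockdown libraries, against 266, 249 and 257 in control libraries. The most abundant locus of the group, the long noncoding RNA 2310043L19Rik, had 0.829, 0.837 and 5.59 in knockdown libraries, against 503, 346 and 439.9 in control libraries. The coding gene 2310002L09Rik had 0.829, 0 and 1.12 in knockdown libraries, against 394, 402 and 447 in control libraries. Control levels of these loci were low for the set, from 214 to 430 in the mean. The intronic RNA 4632404M16Rik had 1.66, 5.86 and 6.71 in knockdown libraries, against 409.7, 398 and 325 in control libraries, and the antisense RNA Gm15816 had 4.15, 4.18 and 5.59 in knockdown libraries, against 299.6, 312 and 321 in control libraries. Both 4632404M16Rik, which lies within Casq2 on the same strand, and Gm15816, which lies opposite Ank1, overlap far more abundant muscle genes. In all, 10 of the 67 genes overlapped another gene of the table, 9 of them on the opposite strand. As the strand setting of the counting is not given in the sources used here, reads of such genes and their partners cannot be told apart.

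By coefficient of variation, the 67 genes were less even among the control libraries than other genes. Their median coefficient of variation over the control libraries was 7.44%, against 5.05% for 8577 other genes in the same range of control means. Control library 2 departed by at least 1.2-fold from the mean of the other two in 15 of the 67 (22.4%), against 6.61% of the other genes in that range. The 67 were also less deeply counted, with a median control mean of 448, against 1349. Set against counting error, 14 of 67 (20.9%) departed by more than 4 errors, against 11.9% in that range. Among all other genes with a control mean of at least 200 it was 17.9%. By more than 2 errors 28 of 67 (41.8%) departed, which was near the 40.0% in that range. Those higher in control library 2 were Kcnj12, Scn4a, Fam167a, Camk1g, Kcnc1 and Atp1b2, of which 4 are ion channels or pumps. Kcnk13, the only other gene of the channel and pump group, was lower there. Those lower were 1600027J07Rik, Cfap52, 2310043L19Rik, Snai3, F2, Il1rn, Fgfbp1, Kcnk13 and Tceal7. The clearest case was 1600027J07Rik, with 329, 203 and 343 in control libraries 1, 2 and 3.

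**Figure D2:**
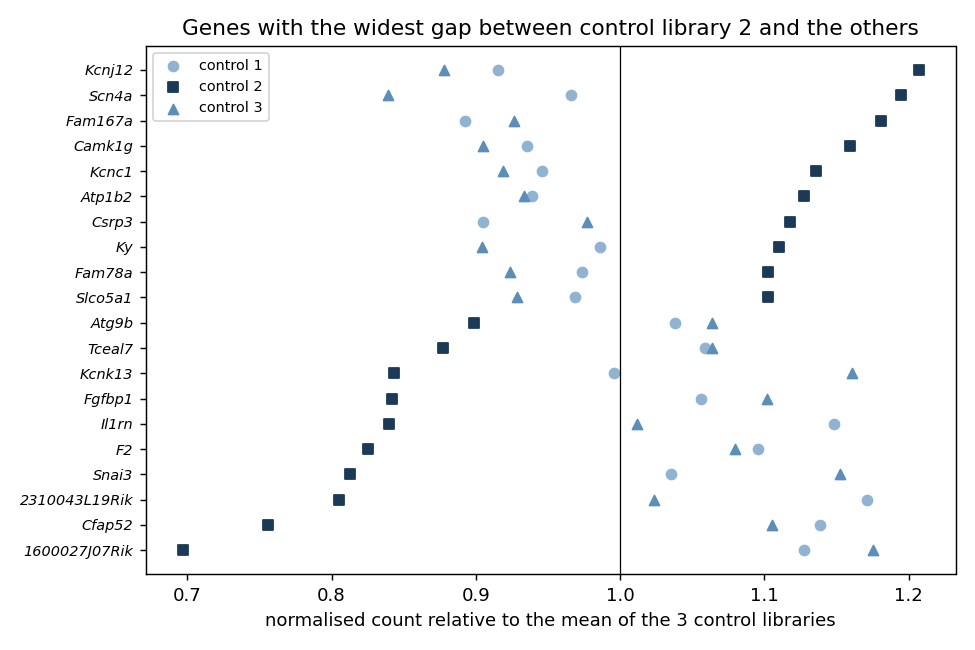
Normalised count in each control library relative to the mean of the 3 control libraries, for the 10 genes of the set furthest above and the 10 furthest below in control library 2. Kcnj12, Scn4a, Fam167a, Camk1g, Kcnc1 and Atp1b2 stand at the top with control library 2 to the right. 1600027J07Rik and Cfap52 stand at the bottom with it to the left, as it is for the potassium channel Kcnk13.

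The relatives of these genes were not used to choose them, so their changes could be tested. Of genes with the same symbol stem, 135 tested relatives of 36 of the 67 were found. They were spread unevenly, with large blocks from the Fbxo genes for Fbxo40, the Tspan genes for Tspan13 and the Btbd genes for Btbd17. Relatives of the same gene are not independent of each other. In knockdown cells 42 of them rose and 41 fell (limma across all genes tested, two-sided, Benjamini-Hochberg adjusted p under 0.05), beside a background of 21.7% higher and 23.5% lower among all 16245 genes. Their median log2 change was 0.11. With control library 1 or control library 3 left out the number that fell dropped to 27, and without knockdown library 3 the numbers were 64 higher and 55 lower, beside 38.6% and 39.9% of all genes. By protein sequence, 38 of the 67 had a closest tested relative, of which 10 rose and 14 fell. Identity over the aligned part ran from 25.9% (Lgals3bp for Btbd17) to 79.2% (Tceal6 for Tceal5), so some of these relatives are distant. Per kilobase of exon, 18 of those 38 relatives had a higher level than the silenced gene in control cells.

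**Figure D3:**
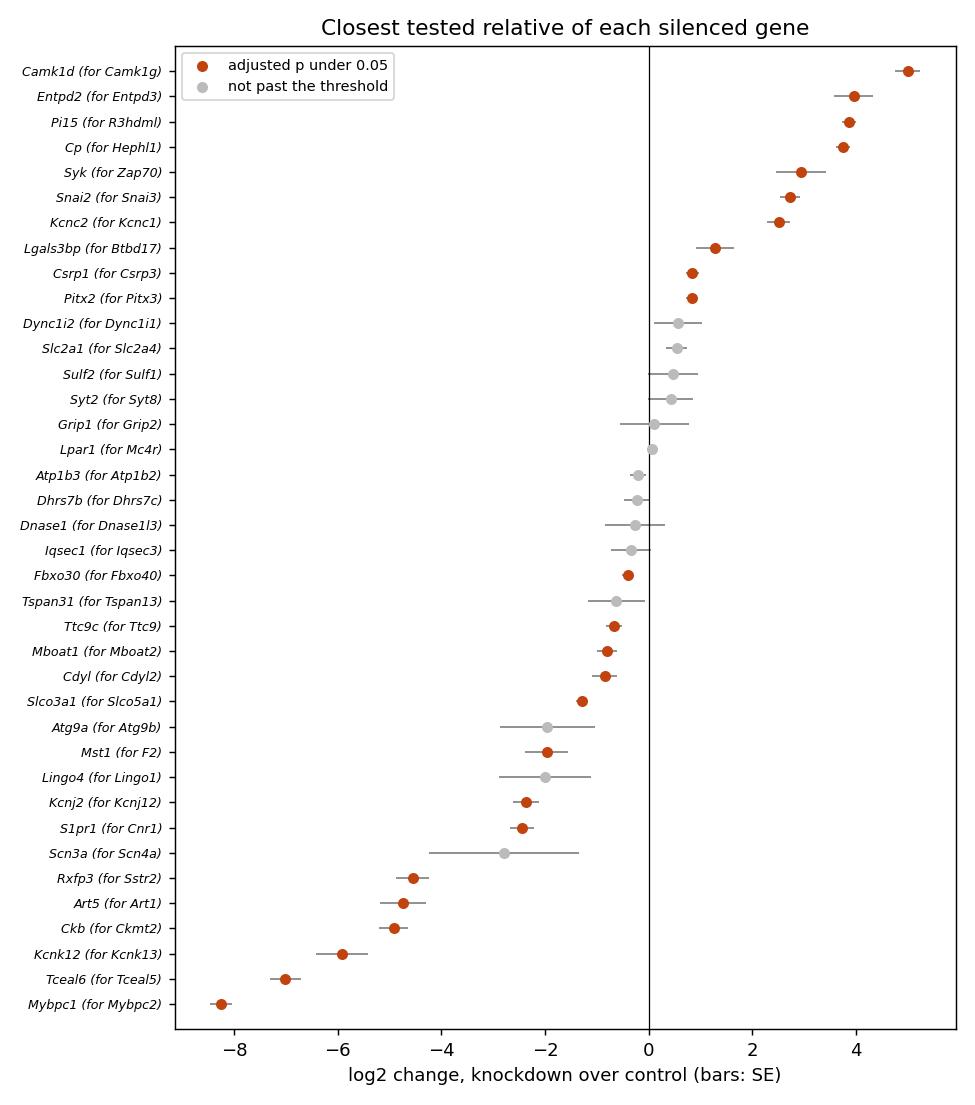
Log2 change, knockdown over control, of the closest tested protein relative of each of 38 silenced genes, with its standard error (3 libraries a group) and the silenced gene in brackets. Points run from Camk1d at 5.0 to Mybpc1 at -8.25, with 10 called higher and 14 called lower. Some relatives are distant, with identities from 25.9 to 79.2%.

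Several families held a member that rose beside one of the set. Camk1d, with 73.1% identity to Camk1g, rose in knockdown cells, with 1529, 1493 and 1519 in knockdown libraries, against 33.8, 61.9 and 47.5 in control libraries (log2 change 5.0, SE 0.24, adjusted p = 3.74e-05). Per kilobase, Camk1g stood at 583 and Camk1d at 6.43 in control cells. Ppp1r3c, another glycogen-targeting subunit of protein phosphatase 1, had 185, 193 and 235 in knockdown libraries, against 4.36, 1.26 and 3.80 in control libraries (log2 change 5.72, SE 0.40, adjusted p = 0.000135), and Ppp1r3b rose with it (log2 change 3.09, SE 0.35, adjusted p = 0.000883). Cp, the plasma ferroxidase ceruloplasmin and the closest tested relative of Hephl1, had 2473, 2331 and 2014 in knockdown libraries, against 161, 159 and 179.6 in control libraries (log2 change 3.76, SE 0.14, adjusted p = 1.59e-05). The knockdown libraries of Camk1d, Ppp1r3c and Cp were all above their control libraries, in a contrast where 45.2% of all genes passed the threshold. Pi15, the closest tested relative of R3hdml (log2 change 3.87, SE 0.14, adjusted p = 1.40e-05), Entpd2, an ectonucleotidase like Entpd3 (log2 change 3.96, SE 0.38, adjusted p = 0.000454), Syk, the kinase most like Zap70 (log2 change 2.94, SE 0.49, adjusted p = 0.00409), and Kcnc2, a voltage-gated potassium channel like Kcnc1 (log2 change 2.51, SE 0.23, adjusted p = 0.00034), rose too. Snai2, a repressor active in mesenchymal cells, had 4394, 4447 and 6729.8 in knockdown libraries, against 753, 781 and 767 in control libraries (log2 change 2.73, SE 0.19, adjusted p = 0.000136). Snai1 fell (log2 change -1.22, SE 0.26, adjusted p = 0.0114), but not past the threshold when control library 1 or 3 was left out. Ppp1r3b, Ppp1r3c, Cp, Pi15, Entpd2, Syk, Kcnc2, Snai1 and Snai2 were picked for mention after their values were seen.

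Relatives by symbol of the most abundant genes went both ways. Dhrs7 rose (log2 change 0.79, SE 0.11, adjusted p = 0.00233), and Dhrs7b did not pass the threshold (log2 change -0.22, SE 0.25, adjusted p = 0.519). Csrp1, the LIM protein of smooth muscle and many other cells, had 17139, 17435 and 15004 in knockdown libraries, against 8911, 9712 and 8931 in control libraries (log2 change 0.85, SE 0.13, adjusted p = 0.00271), and Csrp2 did not pass (log2 change -0.81, SE 0.27, adjusted p = 0.0529). Shisa5 rose (log2 change 1.48, SE 0.18, adjusted p = 0.00122) while Shisa4 fell (log2 change -1.17, SE 0.11, adjusted p = 0.000465). Fgfbp3 rose (log2 change 0.84, SE 0.23, adjusted p = 0.0273), a call lost without control library 1, control library 3 or knockdown library 2. Ttc9c fell (log2 change -0.67, SE 0.15, adjusted p = 0.0127), a call lost without control library 1 or 3. Of 10 tested Btbd genes, named like Btbd17 for a BTB domain, Btbd11 (log2 change 1.13, SE 0.19, adjusted p = 0.00414) and Btbd19 (log2 change 0.63, SE 0.19, adjusted p = 0.0365) rose, Btbd1 fell (log2 change -1.0, SE 0.10, adjusted p = 0.000625) and 7 did not pass. The call on Btbd19 was lost in 5 of the 6 fits that left out 1 library, all but the one without knockdown library 3.

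Other relatives fell by large amounts. Mybpc1, the slow-muscle form of myosin-binding protein C, had 48.1, 35.1 and 61.5 in knockdown libraries, against 14831, 14107 and 14799 in control libraries (log2 change -8.25, SE 0.21, adjusted p = 5.52e-06). Hspb7, a small heat shock protein of heart and skeletal muscle, had 14.9, 15.9 and 13.4 in knockdown libraries, against 2172, 2061 and 2130.1 in control libraries (log2 change -7.08, SE 0.15, adjusted p = 3.68e-06). Tceal6, with 79.2% identity to Tceal5, had 0 reads in knockdown libraries, against 114, 140.2 and 131 in control libraries (limma adjusted p = 2.44e-05). Genes so alike can share reads, so the separate levels of the Tceal genes are uncertain. Slc2a6, a glucose transporter of lysosomes, fell (log2 change -5.23, SE 0.16, adjusted p = 8.19e-06), while Slc2a1, the glucose transporter of most cells, had 4340.1, 4421 and 2858 in knockdown libraries, against 2707, 2351 and 2789 in control libraries, and did not pass the threshold (log2 change 0.54, SE 0.20, adjusted p = 0.0727). It did pass, in the higher direction, under 5 other settings, among them edgeR. After Camk1d, the relatives by symbol outside those of the 10 most abundant genes that rose with the smallest adjusted p were the tetraspanins Tspan15 (log2 change 2.38, SE 0.15, adjusted p = 8.56e-05) and Tspan17 (log2 change 1.89, SE 0.12, adjusted p = 9.26e-05) and Syt17, a synaptotagmin (log2 change 2.53, SE 0.16, adjusted p = 0.000102).

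Neighbouring genes were chosen by position alone (GENCODE M21, GRCm38). Within 100 kb of the 67 genes, 251 other genes were tested. In knockdown cells 100 of them fell (39.8%) and 28 rose (11.2%), beside 23.5% lower and 21.7% higher among all genes tested and 27.6% lower and 18.2% higher among other genes with a control mean of at least 200. Their median log2 change was -0.49. Within 10 kb, a distance chosen after the values were seen, 31 of 50 fell (62.0%) and 1 rose. With overlapping genes left out it was 22 of 38 (57.9%), with 1 that rose, and between 10 and 100 kb it was 69 of 201 (34.3%), with 27 that rose. Of upstream neighbours 38.2% fell, and of downstream neighbours 40.0%. Both shares include overlapping genes, which were put on a side by the strand of the silenced gene alone. Leaving out genes of the muscle lists and of the excluded prefixes, 93 of 242 fell and 28 rose. Without knockdown library 3, 151 of 251 were lower and 60 higher, beside 39.9% and 38.6% of all genes. Neighbours of 1 gene share a region and are not independent of each other.

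**Figure D4:**
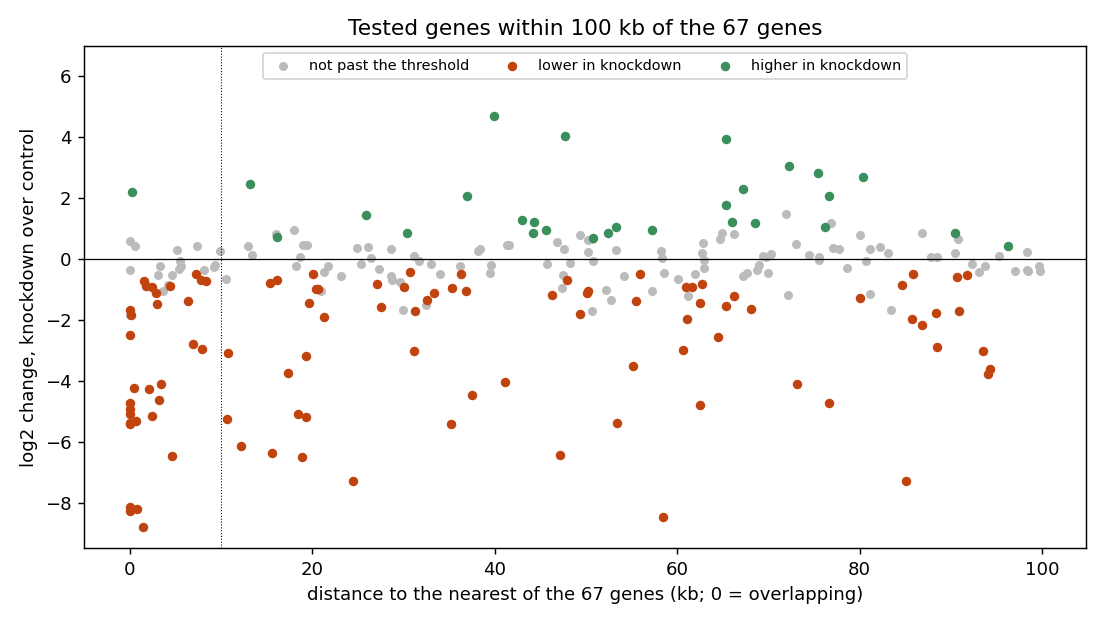
Log2 change, knockdown over control, of 251 tested genes against their distance from the nearest of the 67 genes, in kb, with overlapping genes at 0 and a dotted line at 10 kb. Left of the line 31 of 50 genes are lower and 1 is higher in knockdown cells, and right of it 69 of 201 are lower and 27 higher.

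Among neighbours with a mean of at least 100 over both groups, the furthest falls were those of Tnni2, Tnnt3, Casq2 and Pgm5. Tnni2, fast troponin I, lies 1412 bp from Syt8 and had 95.3, 72.8 and 241 in knockdown libraries, against 52276, 50596 and 56726 in control libraries (log2 change -8.79, SE 0.44, adjusted p = 4.24e-05). Tnnt3, fast troponin T, lies 58440 bp from Syt8 and fell too (log2 change -8.48, SE 0.22, adjusted p = 5.87e-06). Casq2, a calcium store protein of the sarcoplasmic reticulum that overlaps 4632404M16Rik, had 90.4, 82 and 98.4 in knockdown libraries, against 28444, 27467 and 28139 in control libraries (log2 change -8.27, SE 0.11, adjusted p = 1.78e-06). Per kilobase of exon, Tnni2 stood at 35537 and Syt8 at 143 normalised counts in control cells. Whether reads of such abundant genes run on into the silenced loci beside them was not tested. Pgm5, a phosphoglucomutase relative found at adherens junctions and costameres, lies 783 bp from Tmem252 and fell (log2 change -8.22, SE 0.17, adjusted p = 3.68e-06). The largest rises at that level were in Entpd2 (log2 change 3.96, SE 0.38, adjusted p = 0.000454), which lies 65388 bp from Ptgds, in Xaf1, a pro-apoptotic factor 75431 bp from Smtnl2 (log2 change 2.82, SE 0.35, adjusted p = 0.00118), and near Atp1b2 in Tnfsf12, the cytokine TWEAK (log2 change 2.71, SE 0.29, adjusted p = 0.000651), and Tnfsfm13 (log2 change 2.07, SE 0.54, adjusted p = 0.0227). Tnfsfm13 covers the whole of Tnfsf12 on the same strand, so their reads are uncertain. The call on Tnfsfm13 was lost in 5 of the 6 fits that left out 1 library, all but the one without knockdown library 3.

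Some of the 67 lay near each other. There were 5 pairs within 100 kb: Sulf1 and Slco5a1 at 5357 bp, Tceal7 and Tceal5 at 10903 bp, Mir133a-2 and B230312C02Rik at 12494 bp, Adprhl1 and 2810030D12Rik at 13949 bp, and Entpd3 and the pseudogene Gm7229 at 16999 bp. Of the pairs, 4 ran on opposite strands.

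Genes outside the set were counted in 6 lists of muscle and mesenchymal genes. Over these lists, with 191 tested genes outside the set, 137 fell and 20 rose, beside 23.5% lower and 21.7% higher of all genes, with a median log2 change of -2.77. These lists were written with results of this series known, so their direction is not independent evidence. In the calcium release and storage list 21 of 28 fell and 2 rose. Hrc, a calcium-binding protein of the sarcoplasmic reticulum (log2 change -8.12, SE 0.11, adjusted p = 1.78e-06), and Ryr1, its calcium release channel (log2 change -7.46, SE 0.16, adjusted p = 3.68e-06), fell, while Sln, an inhibitor of the calcium pump, had 18.2, 23.4 and 43.6 in knockdown libraries, against 0, 0 and 1.90 in control libraries (limma adjusted p = 0.00221), and Mtm1, a phosphoinositide phosphatase, rose (log2 change 1.91, SE 0.19, adjusted p = 0.000495). In the list of sarcolemma, synapse and excitability 31 of 33 fell and 0 rose (2 rose without knockdown library 3, and 0 with edgeR). Chrng, the fetal acetylcholine receptor subunit, had 249.5, 191 and 203 in knockdown libraries, against 24066, 22468 and 25017 in control libraries (log2 change -6.80, SE 0.14, adjusted p = 3.68e-06). Mymk, the fusion protein myomaker, fell as well (log2 change -6.51, SE 0.12, adjusted p = 3.68e-06). Among channels related to Kcnj12, Kcnj11 had 0, 0 and 1.12 in knockdown libraries, against 154, 149 and 139.7 in control libraries (limma adjusted p = 7.22e-05), and Kcnj2 fell less (log2 change -2.37, SE 0.25, adjusted p = 0.000645). Kcnj11 and Kcnj2 were picked after their values were seen.

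In the list of sarcomere support and chaperones 32 of 39 fell and 1 rose. Nrap (log2 change -8.02, SE 0.16, adjusted p = 3.68e-06) and Xirp1 (log2 change -8.25, SE 0.18, adjusted p = 3.68e-06), both actin-binding proteins of myofibril assembly and cell junctions, fell with the smallest adjusted p of the list, and the intermediate filament protein Synm rose (log2 change 1.35, SE 0.21, adjusted p = 0.00313). In muscle energy metabolism 22 of 27 fell and 3 rose. Ckm, cytosolic muscle creatine kinase, had 62.2, 54.4 and 95 in knockdown libraries, against 71092, 61956 and 75371 in control libraries (log2 change -9.96, SE 0.23, adjusted p = 4.13e-06), beside Ckmt2 at 0 reads. Pygm, muscle glycogen phosphorylase, fell (log2 change -7.61, SE 0.18, adjusted p = 4.81e-06), while Phkb, a subunit of phosphorylase kinase (log2 change 0.66, SE 0.11, adjusted p = 0.0038), and Ampd3, an AMP deaminase (log2 change 2.05, SE 0.34, adjusted p = 0.00405), rose. In transcription and RNA regulation 18 of 31 fell and 5 rose, and the mesenchymal list was the most mixed, with 13 of 33 that fell and 9 that rose. Myogenin (Myog) fell (log2 change -6.36, SE 0.12, adjusted p = 3.68e-06), as did the RNA-binding protein Rbm24 (log2 change -7.85, SE 0.24, adjusted p = 9.01e-06), while Eya1 (log2 change 3.25, SE 0.15, adjusted p = 3.51e-05) and Nfix (log2 change 2.46, SE 0.26, adjusted p = 0.00066), both transcriptional regulators of muscle progenitors and fetal muscle, rose. Of the mesenchymal list, Igfbp5, an insulin-like growth factor binding protein (log2 change -8.48, SE 0.15, adjusted p = 3.68e-06), and Fgf21, a metabolic hormone whose gene lies 24487 bp from Mamstr (log2 change -7.29, SE 0.23, adjusted p = 1.00e-05), fell, and the chemokine Cxcl12 (log2 change 3.54, SE 0.17, adjusted p = 4.06e-05) and the growth factor Bmp4 (log2 change 5.30, SE 0.32, adjusted p = 8.24e-05) rose.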

How the data were processed

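RNA was measured in 6 libraries of C2C12 cells, 3 per group, grouped by the sample titles. Per the submitters' processing notes, the tools were Trimmomatic 0.36, featureCounts of Subread 1.5.2 and DESeq2, with GRCm38 as the build. In the sources used here the aligner, annotation release and strand setting are not given. The table held a normalised signal per gene and library, deposited by the authors and, by its values, gene counts divided by a size factor, and, per the file headers, a log2 fold change, a p-value and an adjusted p-value from their comparison of the groups. All values (100% within 0.01 reads) were whole multiples of 1 read, so the counts behind the deposited values were recovered.

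The 67 genes, their role groups, the gene lists and the tests were chosen with earlier results of these data known. Per gene, limma 3.58.1 (R 4.3.3) was fitted to log2(value + 1) of all 6 libraries with a mean-variance trend, two-sided, with Benjamini-Hochberg adjustment over the 16245 genes that reached 10 in 3 or more libraries. Changes on this scale understate those of low genes, and an exact permutation test of 3 against 3 libraries cannot go below p = 0.1. Levels compared between genes are per kilobase of exon. Positions came from GENCODE M21 (48 of 16854 genes not found) and promoters from RefSeq. Relatives shared a symbol stem. The closest protein (BLAST 2.17.0, e-value at most 1e-20 over at least 50% of the protein, translated from GENCODE M21) was an alternative chosen after seeing the data. Named were members by level and role, the 10 most abundant members' relatives, up to 4 further relatives and up to 4 neighbours per direction, up to 2 genes per list and direction, and Adamtsl2. A gene near the control limit is not reported here. Any further gene was picked for mention once its values were known. Alternatives were other limits, filters, pseudocounts and scalings, a replicate block, each library left out, the count tests of edgeR 4.0.16 and DESeq2 1.42.0 applied to the recovered reads (edgeR called 3765 genes higher and 3579 lower), and other windows. The fit was tested on simulated data in which no library stood apart, so that test does not cover the effect of knockdown library 3.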

Additional observations from a re-analysis of the deposited data

How the results depend on the processing

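The number of genes in the set depends on its limits. It was 33 with a knockdown limit of 5 and 143 with a limit of 20, and 111 with a control limit of 100 and 38 with a limit of 400, against 67. Leaving out 1 library gave 66 to 146 genes, with the 146 from the set without knockdown library 3 and 66 to 70 from the others. The same library decided most counts of called genes: over the 6 fits that left out 1 library the counts ran from 2443 to 6269 higher and 2648 to 6485 lower for all genes, from 35 to 64 and 27 to 55 for relatives, from 20 to 60 and 73 to 151 for neighbours, and from 16 to 33 and 123 to 154 for the muscle lists, with the top of each range from the fit without knockdown library 3. edgeR without that library, added after seeing the data, called 6489 genes higher and 6459 lower, and 64 relatives, 66 neighbours and 33 list genes higher. At an adjusted p of 0.01 there were 2283 higher and 2545 lower genes and 26 relatives lower. With the closest protein in place of the symbol stem, which has fewer genes to test, 10 of 38 relatives were higher and 14 lower. With the nearest gene within 50 kb, 6 of 77 neighbours were higher (7.79%) and 41 lower (53.2%), against 11.2% and 39.8% within 100 kb.

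With a window of 150 bases, shorter by construction, promoters of the set held CANNTG in 52.0%, CAGCTG in 12%, CAGGTG in 8% and CCAAT in 14.0%, against 37.5%, 8.75%, 7.88% and 26.2% of other tested genes in that window. In the whole window, among other genes with a control mean of at least 200, the shares were 61.3% for CANNTG, 14.4% for CAGCTG, 15.7% for CAGGTG, 11.4% for CATTCC, 6.51% for TATAAA and 75.5% for CGCG.

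Whether same-numbered libraries were paired was not settled. Deviations from the group means correlated at 0.017 to 0.143 for same-numbered libraries and at -0.147 to 0.116 for the others. Knockdown libraries 1 and 2 were so alike that this check cannot tell their pairs apart. The replicate block gave 3010 higher and 3301 lower genes, 40 relatives higher and 38 lower, 26 neighbours higher and 90 lower, and 19 list genes higher and 133 lower. Among 81 genes named outside the set, 3 that were not called changed sign. Without 1 library, Btbd6 ran from -0.059 to 0.18, Btbd7 from -0.71 to 0.53 and Btbd8 from -0.25 to 0.075 on the log2 scale. Btbd7 was 0.091 with edgeR, 0.074 with DESeq2 and 0.55 with edgeR without knockdown library 3, and Btbd8 was 0.00484 with upper-quartile scaling and 0.10 with edgeR without knockdown library 3. The cause of these shifts was not tested. Depth limits the knockdown levels of the silenced genes, where 1 read is worth 0.829 to 1.12 units.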
